A study of Rattus norvegicus with 47 samples.

Results

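The xenobiotic and steroid metabolizing enzymes were followed in RNA sequencing of rat kidney cortex after lithium, with or without amiloride. The group was defined by name: every gene that the authors' differential expression tables list under a symbol beginning with Cyp and a digit, Ugt, Gst, Sult, Fmo and a digit, Aldh or Akr, without *Cyp27b1* and *Cyp24a1*. This gave 85 genes under 83 symbols, of 32545 genes counted. They comprise 29 cytochromes P450, 15 glutathione transferases, 13 aldehyde dehydrogenases, 12 aldo-keto reductases, 7 sulfotransferases, 5 flavin monooxygenases and 4 UDP-glycosyltransferases. The tables list genes past an adjusted p threshold in comparisons of these same libraries. The fold changes, calls and intervals given for the members therefore describe the comparisons that chose them and are not independent evidence of a change.

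Male Wistar rats were given normal chow (control), chow with lithium carbonate labelled as 60 mM (Li), or the same chow with 0.2 mM amiloride in the drinking water (LiAM), in separate studies of 14 days, 28 days and 6 months. Amiloride was given from the start in the shorter studies and was added later, to rats already on lithium, in the 6-month study. According to the paper, Li rats of the shorter studies began on a lower lithium dose, which was raised after the first week. The paper also states that rats on lithium had a salt block, and mentions none for controls. Comparisons with control at 14 and 28 days therefore cover lithium and salt block together, and their separate parts were not tested. The 14-day study held 6 control, 6 Li and 6 LiAM libraries, the 28-day study 6, 6 and 5, and the 6-month study 4 of each. The authors' tables leave out LiAM 2 at 14 days and the libraries labelled lithium 4 and LiAM 4 at 6 months, and so do all fold changes given here. At 6 months the tables and the labels name the groups differently: the labelled control libraries are lithium in the tables, the labelled lithium libraries are LiAM, and the labelled LiAM libraries are control. Both names are given below. The labels do not say that every library is a different rat, so the spread between libraries may in part be technical, and the ages of the rats were not given in the sources used here.

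Drugs, pollutants and steroids are cleared in steps. Cytochromes P450 and flavin monooxygenases insert oxygen, aldo-keto reductases and aldehyde dehydrogenases reduce or oxidize the carbonyl groups that arise, and the transferases attach glutathione, sulfate or glucuronic acid, which makes the products soluble. The liver does most of this work, and the proximal tubule is the main site in the kidney. In the rat kidney P450s also act on the body's own lipids: Cyp4a enzymes make 20-HETE, a vasoactive product of arachidonic acid, and *Cyp2c23* makes epoxides from the same acid. Many transferase genes are switched on by the transcription factor Nrf2 through the antioxidant response element, and *Cyp1a1* and *Cyp1b1* by the aryl hydrocarbon receptor through the xenobiotic response element.

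Promoter sequences are shown for 3 members that carry a core of these elements. *Gsta1* and *Gstp1* were the 2 members called lower in the treated rats in each comparison with control at 14 and 28 days, and *Cyp1b1* was among the members that rose at 14 days. The sequences are from RefSeq, build GRCr8, run 5′ to 3′ along the gene's strand, and have the matched core in capitals. For *Gstp1* the 120 bases before the start of the gene are shown (chr1:210769706-210769825, minus strand), for *Cyp1b1* likewise 120 bases (chr6:21094445-21094564, plus strand), and for *Gsta1* the 30 bases at positions 21 to 50 after the start (chr9:31216483-31216512, minus strand).
Gstp1: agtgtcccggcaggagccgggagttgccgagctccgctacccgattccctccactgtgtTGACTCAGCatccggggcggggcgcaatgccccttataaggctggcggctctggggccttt
Gsta1: aactcaggcaTGACTTTGCatttttcttct
Cyp1b1: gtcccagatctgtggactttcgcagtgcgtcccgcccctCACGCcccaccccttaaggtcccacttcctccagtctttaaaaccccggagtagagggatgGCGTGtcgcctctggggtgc

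The antioxidant core TGACNNNGC, read on both strands, lies at positions -61 to -53 of *Gstp1* and 31 to 39 of *Gsta1*, counted from the start of the gene. The xenobiotic core GCGTG is at -20 to -16 of *Cyp1b1* and, on the opposite strand (CACGC), at -81 to -77. Of the 83 symbols, 70 had a RefSeq promoter entry of 250 bases before to 50 after the start. The antioxidant core occurred in 13 of the 70 (18.6%), against 12.1% of all 33469 promoters, and the xenobiotic core in 25 (35.7%), against 29.7%. Both *Gsta2* and *Gsta3* carried the 2 cores, as did *Aldh1a2*, *Aldh9a1*, *Gstm5* and *Gstp1*. A match is a description of the letters and not of a bound site.

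The libraries of the 14-day study held 10399818 to 15618395 counts each, those of the 28-day study 14779709 to 17554304, and those of the 6-month study 21245870 to 25415685. Levels are given as CPM, the count per 1000000 counts of the scaled library total, which are not corrected for gene length and are compared only between libraries of one gene. The tissue label was checked on 10 proximal tubule markers, which were all detected and summed to 12030 to 19640 CPM in the 14- and 28-day libraries and to 11380 to 14900 CPM at 6 months. Mitochondrially encoded genes took 13.8 to 23.4% of the counts at 14 days and 16.5 to 29.9% at 6 months. At 28 days they took 18.2% in control 1 and 31.1 to 33.0% in the other controls, 14.5 to 24.3% in Li and 15.8 to 22.7% in LiAM. In whole cortex, fewer cells of a type and less RNA per cell cannot be told apart.

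Summed over the 85 members, the level was lower in every lithium-treated library than in every control library at 14 days. The sum was 24425 to 28855 CPM in control (median 26586, n = 6), 19443 to 22112 in Li (median 20784, n = 6) and 19095 to 20442 in LiAM (median 19612, n = 5). At 28 days the control range of 22320 to 29380 CPM overlapped that of Li, 19069 to 22946, and stayed above that of LiAM, 17688 to 20147. As a share of unscaled counts, control (2.02 to 2.50%) overlapped LiAM (1.90 to 2.16%) at 28 days. As a share of counts outside the mitochondrially encoded genes it did not (2.93 to 3.52% and 2.41 to 2.62%). At 6 months the 4 labelled control libraries (lithium in the tables) held 21069 to 23142 CPM, the 3 labelled lithium libraries (LiAM) 19287 to 20495, and the 3 labelled LiAM libraries (control) 21226 to 24024. The sum of the proximal tubule markers was also lower at 14 days, with 17640 to 19640 CPM in control, 14550 to 16090 in Li and 14530 to 16940 in LiAM. The median log2 fold change of the 10 markers was -0.14 in Li/control and 0.03 in LiAM/control. Of them 1 and 2 were called lower (3.63% and 3.27% of all genes). At 28 days the sum was not lower: it was 12030 to 16620 CPM in control, 14450 to 17300 in Li and 14900 to 17210 in LiAM. Genes of tubular injury (*Havcr1*, *Lcn2*, *Krt18* and *Spp1*, those named in the tables) summed to 134.7 to 302.1 CPM in control, 481.8 to 1307 in Li and 233.7 to 446.9 in LiAM at 14 days, and to 50.3 to 122.3, 183.1 to 268.4 and 174.7 to 265.2 at 28 days. Of these 4 injury genes 4 were called higher in Li/control at 14 days and 3 at 28 days (8.49% and 5.49% of all genes). In LiAM/control 1 was called higher at each time (5.04% and 9.82%). Their median log2 fold changes were 2.49 and 1.71 in Li/control, and 0.11 and 0.19 in LiAM/control. The part of tubule content or injury in the members' sum was not tested.

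**Figure D1:**
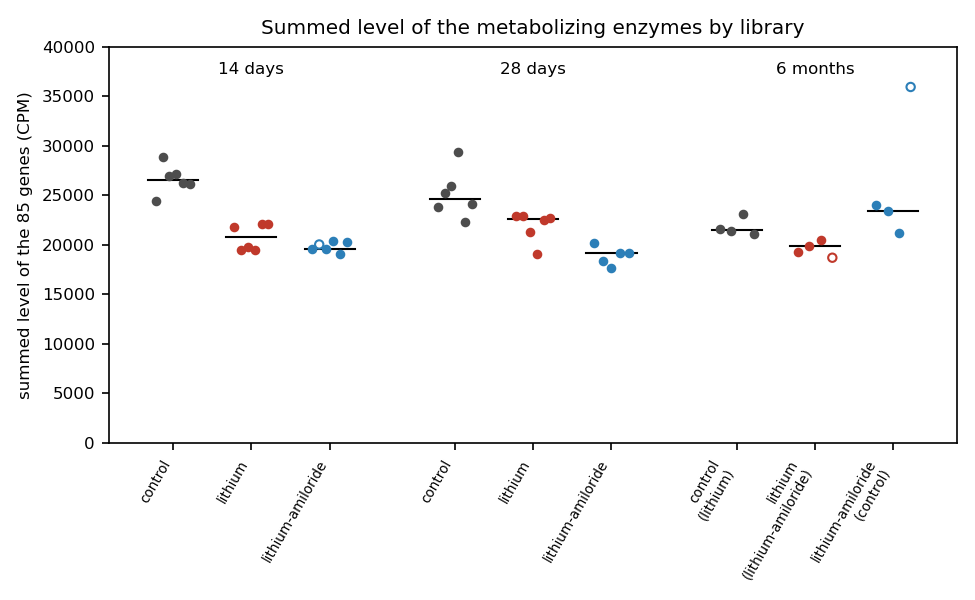
Summed level of the 85 members in each library (CPM, vertical axis) by time and labelled group (in parentheses at 6 months, the name in the authors' tables), with one point per library, a bar at the median and open points for libraries left out of the comparisons. At 14 days the control libraries (24425 to 28855) lie above all lithium-treated ones, and at 6 months one left-out library reaches 35959.

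A gene was called where its adjusted p was under 0.05 and its log2 fold change was 0.5 or more in size. In all, 29 of 83 members tested were called in Li/control at 14 days, 7 higher and 22 lower, where 12.1% of all 14179 genes were called (8.49% higher, 3.63% lower). The median log2 fold change of the members was -0.23, against 0.00 for all genes. In LiAM/control at 14 days 4 members were higher and 23 lower, with 8.32% of all genes called (5.04% higher, 3.27% lower) and a member median of -0.27. At 28 days Li/control had 4 higher and 7 lower of 83 tested (9.07% of genes called, 5.49% higher and 3.59% lower, member median -0.11), and LiAM/control 7 higher and 19 lower (16.6%, 9.82% higher and 6.79% lower, member median -0.27). At 6 months 7 members were higher and 5 lower in the labelled control against the labelled LiAM libraries (Li/control in the tables, with 7.54% of genes called, 5.44% higher and 2.1% lower), of 81 tested. There were 4 higher and 5 lower in the labelled lithium against the labelled LiAM libraries (LiAM/control in the tables, with 7.78% of genes called, 5.77% higher and 2.01% lower). Nothing is read from these shares, since the same comparisons chose the members. In any of the 9 comparisons 49 members were called and 36 in none, and *Cyp11b2* had too few counts to be tested at any time. The share of all genes called in any of the 9 was not computed, and nothing is read from the 49.

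**Figure D2:**
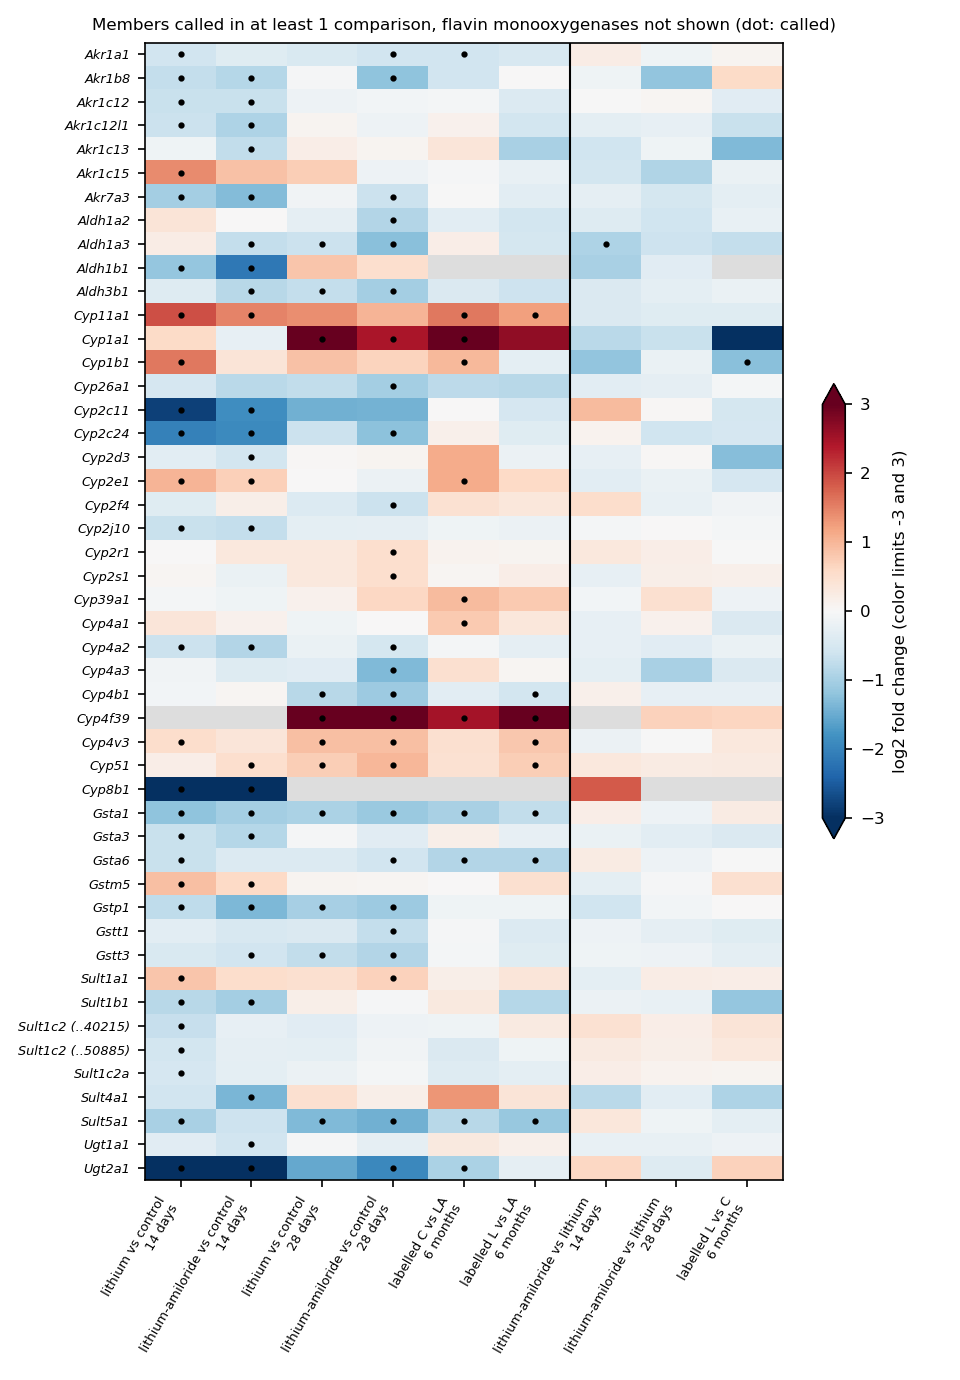
Log2 fold change (colour, limited to -3 and 3, grey where too few counts were tested) of members called in at least 1 comparison, flavin monooxygenases not shown, with a dot where called. The 6 columns left of the line compare with control, or with the labelled LiAM libraries at 6 months (control in the tables), where *Gsta1* is called lower in all 6, and the 3 columns right of it compare lithium with and without amiloride.

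Called members were also counted by family. In Li/control at 14 days, where 12.1% of all genes were called (8.49% higher, 3.63% lower), 5 of 12 aldo-keto reductases fell and 1 rose, and 5 of 7 sulfotransferases fell and 1 rose. Of the 5 sulfotransferase falls 1, that of *Sult1b1*, was kept whichever library was left out. Of 15 glutathione transferases 4 fell and 1 rose, of 27 P450s tested 5 fell and 4 rose, and of 13 aldehyde dehydrogenases 1 fell. At 28 days in the same comparison, with 9.07% of all genes called, 3 glutathione transferases, 2 aldehyde dehydrogenases, 1 sulfotransferase and 1 P450 fell, 4 P450s rose, and no aldo-keto reductase, flavin monooxygenase or UDP-glycosyltransferase was called. At 6 months the members higher in the labelled control against the labelled LiAM libraries were 7 P450s of 26 tested, where 5.44% of all genes were called higher.

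Among the oxidizing P450s, the Cyp4a fatty acid hydroxylases gave the most reads. *Cyp4a2* (ENSRNOG00000030154) alone took 23.2% of the members' reads, a share of reads and not a level per length. At 14 days it stood at 5577 to 6751 CPM in control (median 6357), at 3293 to 5103 in Li (median 3756) and at 3422, 3576, 3957, 2632 and 3410 in LiAM. All treated libraries lay below all controls, with log2 fold changes of -0.65 ± 0.12 (SE) in Li/control and -0.89 ± 0.13 in LiAM/control. The 28-day ranges were 4269 to 7100 CPM in control, 3922 to 5901 in Li and 3275 to 4570 in LiAM and overlapped. There only LiAM/control was called, at -0.53 ± 0.15, and the call was lost without control 2, control 3 or LiAM 4 (-0.49 to -0.44). *Cyp4a2* and *Cyp4a3* are similar in sequence, and reads may have been split between them.

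*Cyp4a3* (ENSRNOG00000009741) fell into separate sets of libraries. Over all 47 libraries its level was 197.5 to 389.0 CPM in 38 and 783.6 to 1188 CPM in 9, with none between. The 9 high libraries were 1 of 6 control, 1 of 6 Li and 2 of 6 LiAM at 14 days, and 3 of 6 control, 2 of 6 Li and 0 of 5 LiAM at 28 days. None of the 12 libraries of 6 months was high. Its fall in LiAM/control at 28 days, -1.32 ± 0.42, is the difference between a group with 3 high libraries and one with none, and the remaining 3 controls (264.3, 346.4 and 260.4 CPM) overlapped the LiAM libraries (275.4, 248.6, 210.3, 273.2 and 246.1). *Cyp4a1*, of the same subfamily, was called only at 6 months, at 134.5 to 218.2 CPM in the labelled control and 88.07 to 115.0 in the labelled LiAM libraries (0.78 ± 0.17).

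The epoxygenase *Cyp2c23* (ENSRNOG00000013291) was not called in any comparison. Its range was 2056 to 2591 CPM in control, 2017 to 2581 in Li and 1662 to 2519 in LiAM at 14 days. Its neighbours in family, *Cyp2c11* and *Cyp2c24*, were among the members that fell most. *Cyp2c11* (ENSRNOG00000052810), known as the male-specific P450 of rat liver, was at 3.12 to 9.43 CPM in control (median 5.01), 0.070 to 1.74 in Li (median 0.66) and 1.53, 1.27, 3.32, 0.59 and 1.21 in LiAM at 14 days. The Li libraries were all below the controls, while 1 LiAM library reached the control range, and the log2 fold changes were -2.81 ± 0.42 and -1.86 ± 0.41. *Cyp2c24* (ENSRNOG00000013241) stood at 19.8 to 31.4 CPM in control against 1.82 to 11.2 in Li and 4.18 to 8.69 in LiAM, without overlap, at -2.03 ± 0.31 and -1.91 ± 0.32.

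At 28 days both genes varied widely among the controls, *Cyp2c11* from 0.90 to 18.6 CPM and *Cyp2c24* from 8.19 to 29.8. *Cyp2c24* was called in LiAM/control (-1.23 ± 0.35) and not in Li/control (-0.64), and *Cyp2c11* in neither (-1.44 and -1.41). *Cyp2c11* and *Cyp2c24* are adjacent protein-coding genes on chromosome 1 in GRCr8. In all, 27 members lay in 11 runs of adjacent members, so that counts of members called are partly counts of clusters of related genes.

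*Cyp2e1* (ENSRNOG00000012458), which oxidizes ethanol and small solvents, rose. At 14 days the level was 170.1 to 321.0 CPM in control (median 251.6), 385.3 to 597.2 in Li (median 516.8) and 464.4, 348.8, 359.7, 479.1 and 412.1 in LiAM. Every treated library exceeded every control, at 1.02 ± 0.13 in Li/control and 0.71 ± 0.14 in LiAM/control. At 28 days it was 217.3 to 391.3 CPM in control, 253.6 to 421.8 in Li and 197.5 to 302.7 in LiAM, with overlap and log2 fold changes of 0.02 and -0.17. The 6-month levels were 426.0, 584.3, 693.8 and 689.7 CPM in the labelled control libraries, with the labelled lithium libraries at 428.1, 377.4 and 465.8 and the labelled LiAM libraries at 345.3, 226.7 and 261.7. The labelled control libraries were above the labelled LiAM libraries (1.11 ± 0.18), and this call was lost, at 0.78, when the left-out libraries were included, of which the labelled LiAM 4 held 551.7 CPM.

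The P450s of the aryl hydrocarbon receptor battery were variable. *Cyp1a1* (ENSRNOG00000019500) stood at 4.42 to 16.4 CPM in control, 6.65 to 30.1 in Li and 1.72 to 19.3 in LiAM at 14 days and was not called. The 28-day controls held 0.22 to 6.46 CPM (median 0.95), Li 3.91 to 23.4 (median 18.3) and LiAM 7.80, 27.5, 4.86, 8.33 and 0.92. The groups overlapped through control 6 and LiAM 5, and the log2 fold changes were 3.13 ± 0.73 and 2.46 ± 0.76, the second lost without LiAM 2 (1.62). At 6 months it was 35.8, 23.7, 4.27 and 1.60 CPM in the labelled control libraries against 0.048, 0.091 and 0.81 in the labelled LiAM libraries (5.69 ± 1.27), a call lost without labelled LiAM 1 or 2 (5.19 and 5.23). *Cyp1b1* (ENSRNOG00000040287) rose in Li/control at 14 days, from 1.83 to 5.96 CPM in control to 3.82 to 20.1 in Li (1.58 ± 0.34), with LiAM at 2.81 to 7.52.

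Of the other P450s, *Cyp2j10* fell in both comparisons with control at 14 days (-0.66 ± 0.13 and -0.72 ± 0.14), *Cyp2d3* in LiAM/control at 14 days (-0.54 ± 0.16) and *Cyp2f4* in LiAM/control at 28 days (-0.64 ± 0.22). In the last comparison *Cyp2r1*, which hydroxylates vitamin D, and *Cyp2s1* rose, both at 0.51 ± 0.18. Of these calls, that of *Cyp2d3* was lost without control 3 or 5 or LiAM 4 or 6 (-0.52 to -0.42) and that of *Cyp2f4* without control 1, 3 or 6 or LiAM 1, 2 or 5 (-0.63 to -0.56). That of *Cyp2r1* was lost without control 2, 3, 5 or 6 or LiAM 1, 3, 4 or 5 (0.41 to 0.53), and that of *Cyp2s1* without control 2, 4 or 5 or LiAM 1, 2, 3 or 5 (0.42 to 0.51). *Cyp4b1* fell at 28 days from 25.3 to 51.2 CPM in control to 17.0 to 31.4 in Li (-0.83 ± 0.17) and 14.8 to 21.3 in LiAM (-1.08 ± 0.18). *Cyp4v3*, the counterpart of a human fatty acid hydroxylase, was the member that rose in Li/control at both 14 and 28 days, at 0.52 ± 0.15 and 0.91 ± 0.19, the first lost without control 2, Li 1, Li 4 or Li 5 (0.40 to 0.49). Its 28-day levels were 11.3 to 23.4 CPM in control, 15.4 to 36.1 in Li and 23.5 to 31.8 in LiAM. *Cyp4f39* (ENSRNOG00000029478) was close to absent from controls, with 1 count over 6 libraries against 46 over 6 Li libraries at 14 days. The ratio, scaled to library totals, was 41.7 (95% interval 7.13 to 1680, exact binomial, counting error only). At 28 days it was 40 counts against 1 (40.0, 6.78 to 1620) in Li and 59 against 1 (68.8, 11.9 to 2760) in LiAM. At 6 months *Cyp4f39* stood at 0.41, 0.39, 0.18 and 0.52 CPM in the labelled control, 0.39, 0.68 and 0.71 in the labelled lithium and 0.048, 0.091 and 0.048 in the labelled LiAM libraries.

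Among enzymes of steroid and sterol metabolism, *Cyp11a1* (ENSRNOG00000008074), the side-chain cleavage enzyme that starts steroid synthesis, rose. It stood at 2.84 to 5.96 CPM in control (median 4.32), 10.7 to 30.7 in Li (median 14.7) and 12.6, 11.3, 4.45, 18.2 and 14.9 in LiAM at 14 days. Li and control did not overlap (1.93 ± 0.31), and LiAM overlapped control through 1 library (1.495 ± 0.32). The 28-day levels were 0.078 to 5.90 CPM in control, 6.55 to 10.3 in Li and 0.16 to 8.80 in LiAM, and neither comparison was called (1.40 and 1.03). Control 3, at 0.078 CPM, and LiAM 5, at 0.16, stood far below all other libraries of that study. The 6-month levels were 6.46, 9.74, 13.4 and 13.2 CPM in the labelled control libraries, with the labelled lithium libraries at 7.62, 9.58 and 7.90 and the labelled LiAM libraries at 4.49, 2.59 and 3.61. The labelled LiAM libraries were below both other groups, by 1.59 ± 0.26 and 1.23 ± 0.28 on the log2 scale. The second call was lost without labelled lithium 2 or LiAM 2 (1.03 to 1.13) and with the left-out libraries included (0.96).

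Of 5 adrenal cortex genes listed beside it, 3 are named in the tables: *Star*, which carries cholesterol into mitochondria, *Mrap* and *Mc2r*. *Star* also rose at 14 days (1.28 in Li/control, 1.41 in LiAM/control) but from 0 to 0.69 CPM in control to 0.28 to 0.78 in Li, and *Mrap* fell (-0.70 and -0.96). Summed, the 3 genes were at 13.1 to 20.8 CPM in control, 9.40 to 12.0 in Li and 7.06 to 10.5 in LiAM at 14 days, and *Mc2r*, the ACTH receptor that marks the adrenal cortex, did not exceed 0.60 CPM in any of those libraries. *Cyp11b2*, aldosterone synthase, had 28 counts over the Li libraries and 1 over the controls at 14 days (ratio 25.4, 95% interval 4.20 to 1040, counting error only). The Li libraries held 1, 15, 2, 0, 6 and 4 counts and overlapped the controls, with 15 of the 28 in Li 2. *Cyp21a1*, the 21-hydroxylase, was at 0.69 to 2.32 CPM in control, 0.40 to 3.66 in Li and 0.27 to 0.98 in LiAM and was not called by edgeR. Whether adrenal tissue had a part in these levels was not tested.

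*Cyp51* (ENSRNOG00000007234), a demethylase of cholesterol synthesis, also rose. At 28 days it was at 24.7 to 32.2 CPM in control (median 25.4), 30.6 to 56.8 in Li (median 47.01) and 64.6, 68.9, 44.9, 46.3 and 45.5 in LiAM. LiAM lay above all controls and 5 of 6 Li libraries did, with log2 fold changes of 0.75 ± 0.14 and 0.99 ± 0.15. It was also called in LiAM/control at 14 days (0.51 ± 0.10, just past the fold threshold, and lost at 0.48 to 0.50 without control 5, LiAM 3 or LiAM 4 and at 0.44 with LiAM 2 included) and in the labelled lithium against the labelled LiAM libraries at 6 months (0.74 ± 0.10). There the values were 35.5, 34.9 and 39.2 CPM against 20.6, 21.3 and 23.5. *Cyp8b1*, the sterol 12α-hydroxylase of bile acid synthesis, had 100 counts over the 6 controls and 2 over the 6 Li libraries at 14 days, a 55.1-fold lower level (95% interval 14.9 to 461). *Cyp39a1*, an oxysterol 7α-hydroxylase, was called only at 6 months, at 2.89 to 6.16 CPM in the labelled control and 2.14 to 2.52 in the labelled LiAM libraries, a call lost when any 1 of 8 of the 10 libraries was left out (0.73 to 0.997), labelled control 3 and 4 excepted.

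Among the conjugating enzymes, *Gsta1* (ENSRNOG00000013484), an alpha-class glutathione transferase, was the member that was lower in all 6 comparisons with control. At 14 days its level was 440.4 to 595.2 CPM in control (median 531.6), 176.3 to 310.8 in Li (median 218.2) and 256.8, 234.6, 337.7, 234.4 and 254.4 in LiAM. Both treated groups lay below all controls, at -1.22 ± 0.13 and -1.02 ± 0.14. At 28 days it was 554.3 to 747.2 CPM in control (median 623.1), 227.1 to 383.5 in Li (median 348.1) and 356.6, 287.9, 305.2, 239.1 and 284.9 in LiAM, again without overlap, at -0.95 ± 0.12 and -1.10 ± 0.13.

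At 6 months *Gsta1* stood at 342.4, 350.4, 416.9 and 359.5 CPM in the labelled control libraries (lithium in the tables) and at 390.1, 473.4 and 454.9 in the labelled lithium libraries (LiAM). The labelled LiAM libraries (control) held 765.5, 795.1 and 628.0 CPM and lay above both other groups. The log2 fold changes against them were -0.98 ± 0.10 and -0.74 ± 0.11. Read by the labels alone, the control libraries thus stood below the LiAM libraries at 6 months and above them at 14 and 28 days. *Gsta6*, its neighbour on chromosome 9, had the same order at 6 months, at 19.0 to 23.4 CPM in the labelled control, 19.8 to 24.4 in the labelled lithium and 33.6 to 49.4 in the labelled LiAM libraries. It fell in Li/control at 14 days (-0.67 ± 0.17). Alpha-class genes are similar in sequence and reads may be shared among them.

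*Gstp1* (ENSRNOG00000018237), the pi-class transferase, was lower in the 4 short comparisons. At 14 days it was at 174.1 to 270.6 CPM in control (median 215.6), 67.7 to 218.9 in Li (median 111.5) and 64.8, 102.8, 75.6, 69.1 and 125.3 in LiAM. The Li libraries fell into the control range in 2 of 6 (218.9 and 211.0 CPM), whereas LiAM lay below all controls (-1.36 ± 0.29). The call of Li/control, at -0.76 ± 0.26, was lost when any 1 of 8 libraries was left out (control 1, 2, 5 and 6, Li 2, 3, 4 and 5), at -0.77 to -0.63. The 28-day ranges were 81.0 to 327.8 CPM in control, 55.6 to 124.1 in Li and 62.2 to 103.4 in LiAM (-1.003 ± 0.28, lost at -0.72 without control 6, and -1.09 ± 0.30). The 6-month groups overlapped, at 80.7 to 97.7, 88.6 to 97.0 and 92.8 to 109.2 CPM for labelled control, lithium and LiAM.

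**Figure D3:**
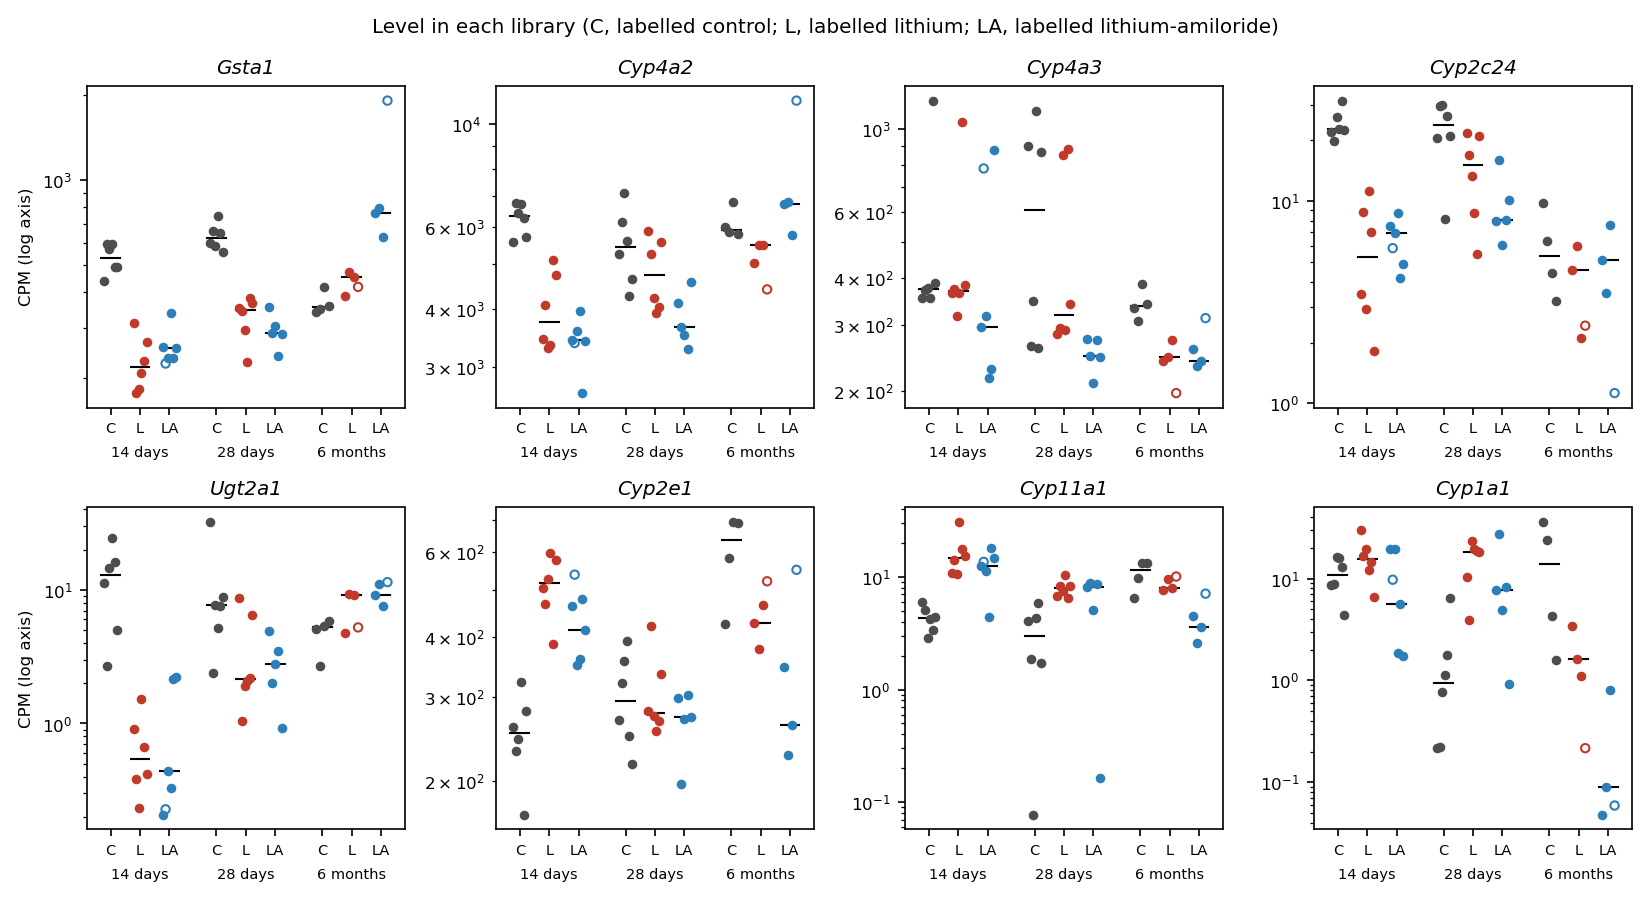
Level of selected members in each library (CPM, logarithmic vertical axis) by time and labelled group (C control, L lithium, LA lithium with amiloride), one point per library, a bar at the median, open points for libraries left out of the comparisons. *Gsta1* is lower in treated libraries at 14 and 28 days, and *Cyp4a3* falls into a low set up to 389.0 and a high set from 783.6.

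Of the other glutathione transferases, *Gstt3*, of the theta class, fell at 28 days from 914.5 to 1483 CPM in control to 466.4 to 925.1 in Li (-0.74 ± 0.17) and 459.0 to 796.2 in LiAM (-0.89 ± 0.18). *Gstt1*, adjacent to it on chromosome 20, was called in LiAM/control at 28 days (-0.72 ± 0.10). *Gstm5*, of the mu class, rose at 14 days, from 1.62 to 2.54 CPM in control to 2.89 to 4.41 in Li (0.90 ± 0.17) and 2.34 to 3.95 in LiAM (0.61 ± 0.18, lost without control 5, LiAM 4 or LiAM 6, at 0.50 to 0.55). The 2 identifiers that share the symbol *Gsta2*, and *Gsta4*, *Gstk1*, *Gstm2*, *Gstm4*, *Gstt2* and *Gstz1*, were called in no comparison.

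Among the UDP-glycosyltransferases, *Ugt2a1* (ENSRNOG00000001973), first known from olfactory tissue, fell most. At 14 days it was at 2.68 to 24.3 CPM in control (median 12.98), 0.23 to 1.52 in Li (median 0.55) and 0.21, 0.44, 0.33, 2.16 and 2.23 in LiAM. No treated library reached the controls (-4.12 ± 0.58 and -3.51 ± 0.58). The 28-day controls held 2.39 to 32.1 CPM, Li 1.05 to 8.63 and LiAM 0.92 to 4.94, and LiAM/control was called (-1.93 ± 0.62) but not without control 1 or LiAM 5 (-1.70 to -1.17). At 6 months it was at 5.12, 2.71, 5.39 and 5.88 CPM in the labelled control and 9.12, 11.1 and 7.56 in the labelled LiAM libraries (-0.95 ± 0.28). This call was lost, at -1.06 to -0.75, when any 1 of 8 libraries was left out (labelled control 1 to 4, lithium 2 and 3, LiAM 1 and 2), and at -1.04 with the left-out libraries included. *Ugt1a1*, which conjugates bilirubin, fell in LiAM/control at 14 days from 467.0 to 542.8 CPM to 314.6 to 393.4 (-0.57 ± 0.08). *Ugt8*, which makes galactosylceramide, and *Ugt2b35* were called in no comparison.

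Among the sulfotransferases, *Sult5a1* (ENSRNOG00000015695) was low throughout. At 28 days it was at 3.15 to 8.87 CPM in control (median 5.31), 1.05 to 2.92 in Li (median 2.30) and 2.25, 2.58, 2.01, 1.60 and 1.52 in LiAM, without overlap (-1.31 ± 0.27 and -1.45 ± 0.29). It was also lower in Li/control at 14 days (-0.98 ± 0.29, lost at -0.82 without control 6). At 6 months it was lower in the labelled control (2.13, 3.06, 3.43 and 3.12 CPM) and labelled lithium (2.92, 2.05 and 2.30) than in the labelled LiAM libraries (5.89, 4.41 and 5.52), the first of these calls lost without labelled LiAM 1 (-0.76). *Sult1a1*, a phenol sulfotransferase, rose, at 0.82 ± 0.26 in Li/control at 14 days (lost without Li 1 or Li 4, at 0.63 to 0.67) and 0.69 ± 0.17 in LiAM/control at 28 days. *Sult1b1*, *Sult1c2a* and the 2 identifiers named *Sult1c2* fell in Li/control at 14 days, with log2 fold changes of -0.84, -0.50, -0.68 and -0.54. The call of ENSRNOG00000040215, at -0.68, was lost without control 2, 3 or 6 or Li 1, 3 or 4 (-0.65 to -0.46). That of ENSRNOG00000050885, at -0.54, was lost without control 3, Li 1 or Li 4 (-0.49 to -0.48), and that of *Sult1c2a* without control 2, 3 or 6, Li 1, 3 or 4 or LiAM 4 (-0.50 to -0.41). *Sult4a1* fell in LiAM/control at 14 days, from 9.37 to 20.4 CPM in control to 2.09 to 11.2 (-1.38 ± 0.35). The Sult1c genes may share reads.

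Among the enzymes that act on carbonyl groups, *Akr7a3* (ENSRNOG00000017899), the aflatoxin aldehyde reductase of the rat, was at 795.5 to 1187 CPM in control (median 896.9), 360.3 to 608.3 in Li (median 462.9) and 370.9, 408.5, 381.4, 343.0 and 418.4 in LiAM at 14 days. No treated library reached the controls (-1.02 ± 0.12 and -1.30 ± 0.13). The 28-day controls held 417.7 to 862.1 CPM, Li 446.9 to 851.5 and LiAM 424.9 to 483.1, so that Li spanned the control range (-0.11) and LiAM lay at its lower end (-0.64 ± 0.17). *Akr1a1*, aldehyde reductase, was at 1509 to 1857 CPM in control, 960.6 to 1224 in Li and 1203 to 1608 in LiAM at 14 days (-0.58 ± 0.09 in Li/control). At 6 months it was at 1221 to 1310 CPM in the labelled control and 1741 to 1963 in the labelled LiAM libraries (-0.57 ± 0.07). *Akr1c12*, *Akr1c12l1* and *Akr1b8* also fell in both comparisons with control at 14 days. *Akr1c15* rose in Li/control, from 0.25 to 0.81 CPM to 0.94 to 2.85 (1.42 ± 0.30), a call lost at the same fold change when the left-out LiAM 2 was included in the fit. In LiAM 2 it was at 61.2 CPM, and 4 adipose genes, whose sum was 33.7 to 97.9 CPM in the other libraries of that study, summed to 1970 CPM there. Among the Li libraries of 28 days Li 1 had the highest *Akr1c15* (7.28 CPM) and the highest adipose sum (224.0 CPM).

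Among the aldehyde dehydrogenases, *Aldh1a3* (ENSRNOG00000052070), which makes retinoic acid from retinal, was the member called in LiAM/Li at 14 days by edgeR. At 14 days it was at 17.2 to 34.6 CPM in control (median 23.8), 20.3 to 34.7 in Li (median 27.7) and 15.1, 14.3, 18.8, 12.8 and 12.9 in LiAM. LiAM lay below every Li library (-0.93 ± 0.16), and the left-out LiAM 2, at 15.0 CPM, lay with the other LiAM libraries. At 28 days it was at 18.5 to 42.6 CPM in control, 13.7 to 24.2 in Li and 13.8, 13.7, 12.9, 13.1 and 15.6 in LiAM. It fell in Li/control (-0.64 ± 0.18, lost without control 2, 5 or 6 or Li 4, at -0.57 to -0.54) and LiAM/control (-1.26 ± 0.20). *Aldh1b1*, a mitochondrial enzyme, fell at 14 days from 5.64 to 13.2 CPM in control to 3.18 to 6.30 in Li (-1.16 ± 0.25) and 1.26 to 4.18 in LiAM (-2.14 ± 0.28). At 28 days its control range was 0.90 to 6.26 CPM and neither comparison was called. *Aldh3b1* fell in both comparisons at 28 days (-0.72 ± 0.23, lost without control 2, 3 or 6 or Li 3, 4 or 6, at -0.71 to -0.61, and -1.01 ± 0.24) and in LiAM/control at 14 days (-0.83 ± 0.19). In LiAM/control at 28 days, where 16.6% of all genes were called, *Aldh1a2*, a further retinal dehydrogenase, fell from 6.41 to 16.2 CPM in control to 5.07 to 7.63 in LiAM (-0.87 ± 0.25), and *Cyp26a1*, which degrades retinoic acid, from 0.98 to 2.18 to 0.49 to 0.95 (-1.01 ± 0.29). *Aldh1a1*, also a retinal dehydrogenase, was called in no comparison, nor were *Aldh2*, *Aldh6a1*, *Aldh7a1* and *Aldh8a1*.

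The addition of amiloride was addressed by LiAM/Li. At 14 days 1 member, *Aldh1a3*, was lower and none was higher by edgeR, where 2.19% of all genes were called (0.79% higher, 1.4% lower). DESeq2 called 4 members lower there, *Aldh1a3* (-0.93), *Aldh1b1* (-0.97), *Cyp1b1* (-1.18) and *Cyp21a1* (-1.45). At 28 days no member was called by edgeR, where 0.438% of all genes were called (0.339% higher, 0.099% lower), and DESeq2 called none. An unadjusted p under 0.05 in edgeR was found for 21 of 83 members at 14 days and 18 of 83 at 28 days. In LiAM/Li of the tables at 6 months it was found for 27 of 81. Shares of all genes at that level were not computed. The same comparisons chose the members, so nothing is read from these counts. At 6 months *Cyp1b1* was lower in the labelled lithium than in the labelled control libraries (LiAM/Li in the tables; 1.99% of all genes called, 1.39% higher and 0.599% lower), at 1.48, 1.75 and 1.39 against 2.17, 2.76, 4.76 and 5.04 CPM (-1.26 ± 0.29), a call lost without any 1 of 9 of the 10 libraries, labelled control 1 excepted (-1.38 to -1.07), and with the left-out libraries included (-1.23). A miss of the threshold does not show that the groups were alike. Li/control and LiAM/control share their control libraries, so the values of both are set side by side above and their likeness is not given as a result.

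**Figure D4:**
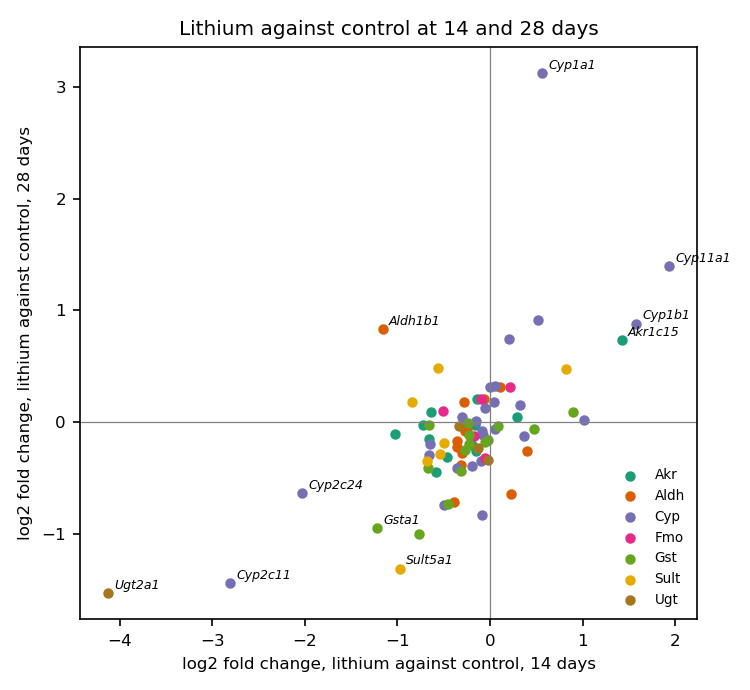
Log2 fold change of each member in Li/control at 14 days (horizontal axis) against 28 days (vertical axis), coloured by gene family. *Gsta1*, *Gstp1* and *Sult5a1* are lower and *Cyp4v3* is higher at both times, and the values of *Ugt2a1* (-4.12) and *Cyp2c11* (-2.81) at 14 days lie farthest to the left.

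The 14- and 28-day studies had no library in common, but the comparisons of both took part in the choice of members. The same counts over all genes were not made, so nothing is read about the members from the counts below. Of the 22 members lower in Li/control at 14 days 21 were tested at 28 days, where 17 had the same sign and 3 were called: *Gsta1*, *Gstp1* and *Sult5a1*. Of the 7 higher at 14 days all had the same sign at 28 days, and *Cyp4v3* was called. In LiAM/control, 10 of the 23 members lower at 14 days were also called lower at 28 days, among them *Akr1b8* (lost at 28 days without LiAM 1 or LiAM 5), *Akr7a3*, *Cyp2c24*, *Cyp4a2* and *Ugt2a1* beside *Gsta1* and *Gstp1*, and *Cyp51* was called higher at both. Differences between the times were not tested.

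The 3 left-out libraries are the only ones that did not take part in the choice of members. The paper removed 6-month samples that fell outside the cluster of their group. The same counts over all called genes were not made, so the counts below are not a result about the members. For the 27 members called in LiAM/control at 14 days, the left-out LiAM 2 was nearer to the LiAM than to the control mean in 24, the others being *Akr1b8*, *Cyp51* and *Gstt3*. At 6 months, the left-out labelled lithium 4 was nearer to its own label in 8 of 9 members called against labelled LiAM, *Cyp4v3* being the other. The left-out labelled LiAM 4 was nearer to its own label in 9 of 12 members called against labelled control. The others were *Cyp11a1*, *Cyp2e1* and *Cyp4a1*. Against labelled lithium, the left-out labelled LiAM 4 was nearer to its own label in 7 of 9 members called, the others being *Cyp11a1* and *Cyp4b1*. The labelled LiAM 4 held the highest value of the 12 libraries for 32 of the 85 members, among them *Gsta1* (1907 CPM, next 795.1), *Akr7a2* (1149, next 437.2) and *Akr1a1* (4096, next 1963). How many of all genes were highest there was not counted. As a share of unscaled counts the members took 2.86% there, against 1.83 to 2.44% in the other 6-month libraries.

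The members nearest the inside of the tables' adjusted p threshold were *Cyp2d2*, *Ugt2b35* and *Sult1c2* (ENSRNOG00000040215). The tables end at the threshold, and genes just outside it were not used here. The log2 fold changes of *Cyp2d2* ranged from -0.17 to 0.11 over the 9 comparisons, and its levels were 229.9 to 280.3, 208.8 to 244.9 and 235.1 to 254.5 CPM in control, Li and LiAM at 14 days.

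Partner genes were taken from lists of enzymes, regulators and transporters, of which only genes named in the tables, and so themselves selected, could be found. Of 12 Nrf2 target genes 9 were named. In Li/control 1 was called higher and 1 lower at 14 days (8.49% and 3.63% of all genes). At 28 days 1 was higher and none lower (5.49% and 3.59%). In LiAM/control none was higher and 3 were lower at 14 days (5.04% and 3.27%), and 1 was higher and 1 lower at 28 days (9.82% and 6.79%). *Srxn1*, sulfiredoxin, rose in Li/control at 14 days (0.81) and 28 days (1.51), and *Me1*, malic enzyme, fell at 14 days (-0.91). In LiAM/control at 14 days *Gclc* and *Gclm*, the subunits of the enzyme that makes the glutathione precursor, fell (-0.84 and -0.80), as did *Me1* (-1.10). Of 12 regulators 9 were named. In Li/control 1 was called lower at 14 days and 1 higher at 28 days (3.63% and 5.49% of all genes). In LiAM/control 1 was higher and 1 lower at 14 days (5.04% and 3.27%), and 2 were higher at 28 days (9.82%). *Ahrr*, the repressor of the aryl hydrocarbon receptor, fell at 14 days (-1.63 in Li/control, -1.17 in LiAM/control), and *Ppara*, the receptor that drives Cyp4a genes, rose in Li/control at 28 days (0.54) and in LiAM/control at 14 and 28 days (0.58 and 0.62).

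Of 20 electron donors and other conjugating or hydrolysing enzymes 12 were named, and none was called in Li/control at 14 days (12.1% of all genes). At 28 days 1 was called there, lower (3.59%): *Ephx2*, which hydrolyses the epoxides of arachidonic acid (-1.10). In LiAM/control 1 was lower at 14 days and 3 at 28 days (3.27% and 6.79%), and none was higher (5.04% and 9.82%). Of 14 steroid and retinoid dehydrogenases and reductases 11 were named, with 2 higher and 2 lower in Li/control at 14 days (8.49% and 3.63% of all genes) and 2 higher and 1 lower at 28 days (5.49% and 3.59%). *Dhrs9*, which acts on retinol, rose in both comparisons with control at 14 days (5.41 and 3.75) and 28 days (4.85 and 3.68). *Hsd11b2*, which inactivates glucocorticoids in the collecting duct, fell in Li/control (-2.11 at 14 days, -1.24 at 28 days) and was higher in LiAM/Li (1.81 and 1.45). Of 15 drug and steroid transporters 12 were named, with 3 lower and none higher in Li/control at 14 days (3.63% and 8.49% of all genes) and 1 lower and 2 higher at 28 days (3.59% and 5.49%). Among those lower at 14 days were *Slc22a2* (-0.57), which takes up organic cations, and *Slco1a1* (-0.84), which takes up organic anions, and the 2 higher at 28 days were the efflux pumps *Abcb1b* (0.85) and *Abcc1* (0.55). The median log2 fold change in Li/control at 14 days was -0.30 for the Nrf2 targets, -0.26 for the electron donor list and -0.23 for the transporters, with 0.00 for all genes. The 28-day medians were 0.03, -0.24 and 0.19, with 0.01 for all genes.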

How the data were processed

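Messenger RNA of rat kidney cortex was sequenced in 47 libraries. The authors trimmed reads (cutadapt 0.2.6), aligned them to Rnor_6.0 (HISAT2 2.1.0) and deposited raw counts per Ensembl gene (featureCounts 2.0.0), versions as in the submitters' processing notes. The deposited DESeq2 tables hold the authors' signal (baseMean, a mean of scaled counts), log2 fold change and its p-values. These served only to name genes, to find the libraries behind them (median relative difference of baseMean at most 6.57e-11) and to name the 6-month groups, and none of their values are given.

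The quasi-likelihood F test of edgeR 4.0.16 under R 4.3.3 was applied to the counts (TMM scaling, low counts removed with filterByExpr, 3 groups of a time in 1 fit, Benjamini-Hochberg over all genes). CPM of single libraries were scaled over all deposited libraries of a time. The SE given after ± was not fitted directly. It is the size of the log2 fold change divided by the square root of its F statistic, and is least certain at low counts. Intervals are exact (Clopper-Pearson, 95%) and cover counting error only. Fits were tested on simulated data. Alternatives were DESeq2 1.42.0 with its scaling, no filter, no fold threshold, all deposited libraries, a replicate block, no mitochondrially encoded genes, and each library left out. Relative log expression (RLE) scaling in place of TMM was a further alternative. Members and lists were chosen with earlier results of these data known. Members named were the 10 with the highest mean CPM, in each comparison up to 6 called members with the highest and up to 6 with the lowest fold change, those called alike in Li/control at 14 and 28 days, or in opposite directions in Li/control and LiAM/Li, the 3 nearest the tables' threshold, the steroid-synthesis P450s, and those with 1 library over 5 times above the next of its group. Other members were named to complete a family, after their values were seen. The strand setting of the counting was not given in the sources used here. Results for some genes are not reported here.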

Additional observations from a re-analysis of the deposited data

Results flagged for a closer look

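Single libraries stood apart from the rest of their group in 15 of 144 sets of values looked at (a member or the sum in 1 group of 4 to 6 libraries), the gap to the next library being most of the group's range. For normally distributed values chance alone would give such a gap in about 1 of 20 groups. The CPM were not log-transformed, their distribution was not checked, and the members looked at were a chosen set. Nothing is therefore read from 15 of 144, and no cause was tested for any of these libraries.

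Among the conjugating enzymes, *Gsta1* was high in LiAM 4 at 14 days (337.7 CPM, next 256.8) and in the labelled LiAM 4 at 6 months (1907 CPM, next 795.1), where *Gstp1* was also high (190.1 CPM, next 109.2). That 6-month library is used in no comparison, and its sum over the 85 members, 35959 CPM, was the highest of the 12 libraries, with 24024 CPM next. It held the highest level of 32 of the 85 members, and how many of all genes were highest there was not counted. As a share of unscaled counts the members took 2.86% there, with 2.44% next. *Ugt2a1* was high in control 1 at 28 days (32.1 CPM, next 8.77).

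Among the P450s, *Cyp4a3* was high in control 5 (1188 CPM, next 389.0) and Li 5 (1039 CPM, next 384.2) at 14 days, *Cyp2c11* in LiAM 4 at 14 days (3.32 CPM, next 1.53), *Cyp11a1* in Li 4 at 14 days (30.7 CPM, next 17.7) and *Cyp51* in control 1 at 14 days (47.7 CPM, next 42.1). *Cyp1a1* was high in control 6 (6.46 CPM, next 1.78) and LiAM 2 (27.5 CPM, next 8.33) at 28 days and in the labelled LiAM 3 at 6 months (0.81 CPM, next 0.091). Of the enzymes acting on carbonyl groups, *Akr1c15* was high in LiAM 2 at 14 days (61.2 CPM, next 1.25) and in Li 1 at 28 days (7.28 CPM, next 1.84), and *Aldh1a3* was low in Li 4 at 28 days (13.7 CPM, next 20.9).

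For 2 members all libraries of the treated group lay on one side of control at 14 days and on the other side at 6 months. How many of all genes did so was not counted, so nothing is read from this count. The 6-month groups are here named as in the deposited tables. The log2 fold change of *Aldh1l1*, the folate-dependent 10-formyltetrahydrofolate dehydrogenase, was -0.28 in Li/control at 14 days and 0.32 at 6 months, and -0.27 and 0.28 in LiAM/control. That of *Ugt1a1* was -0.33 and 0.28 in Li/control, and -0.57 and 0.14 in LiAM/control. The differences between the times were not tested.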

How the results depend on the processing

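Counts of called members depended on the fold threshold. With the adjusted p alone they rose to 49 in Li/control and 42 in LiAM/control at 14 days, and to 22 and 46 at 28 days. Of all genes 3967 and 2519 of 14179 were then called at 14 days, and 2758 and 5322 of 14140 at 28 days. At 6 months the adjusted p alone gave 28 in labelled control against LiAM, 4 in labelled lithium against control and 20 in labelled lithium against LiAM. Of all 14532 genes it gave 2417, 416 and 2004. DESeq2 called 4 members in LiAM/Li at 14 days, where edgeR called 1, and 2 in labelled lithium against control at 6 months, where edgeR called 1. With all deposited libraries these were 2 and 0. Leaving out 1 library gave 22 to 31 (Li/control), 1 to 2 (LiAM/Li) and 24 to 31 (LiAM/control) at 14 days, and 8 to 14, 0 to 0 and 22 to 28 at 28 days. At 6 months it gave 8 to 12 (labelled control against LiAM), 0 to 5 (labelled lithium against control, 5 without control 1) and 5 to 10 (labelled lithium against LiAM, 5 without lithium 2). Of the 29 calls in Li/control at 14 days 21 were kept whichever library was left out, of the 27 in LiAM/control 22, of the 11 and 26 at 28 days 7 and 16, and of the 12, 1 and 9 at 6 months 6, 0 and 5. No named member changed direction with its call. The counts in this paragraph describe the settings, and nothing is read from them about the members.

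Replicate numbers did not pair the libraries, since the correlation of same-numbered deviations had medians of 0.028 (14 days), -0.018 (28 days) and -0.084 (6 months) and was as low as -0.22. A replicate block gave 6 members in labelled control against LiAM and 0 in labelled lithium against control at 6 months, and counts within 1.5 times elsewhere. Removing the mitochondrially encoded genes or the low-count filter, or replacing TMM with RLE scaling, moved no count by more than that. Members of few counts, among them *Cyp4f39*, *Cyp8b1* and *Cyp11b2*, are limited by depth.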
